A study of Polypedilum vanderplanki with 33 samples.

Results

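The 107 genes described here had lower transcript levels at 8 to 24 h of dehydration than at 0 h, and were still low at 24 and 48 h of rehydration. They were chosen by a rule from 28415 counted gene models. The samples are whole larvae of Polypedilum vanderplanki, a chironomid midge whose larvae can dry out almost completely and resume life in water. The rule compared levels as log2(mean CPM + 1), where CPM is the gene's count scaled to the library's total. It kept a gene whose level over the 12 libraries of 8, 12, 16 and 24 h of dehydration, and whose level over the libraries of 24 and 48 h of rehydration, each lay at least 1.5 below the level of the 2 libraries at 0 h. Both level limits were met by 113 genes. Of these, 2 lay on 5 scaffolds that the rule leaves out, and 4 had a CPM under 1 in a 0 h library. All 107 genes passed the count filter, as any gene with a CPM of at least 1 in both 0 h libraries must.

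Per the labels, the 33 libraries came from polyadenylated RNA of larvae of inbred lines, reared on a milk-agar diet and sampled along a cycle of drying and rewetting. During drying there were 2 libraries at each of 0, 1 and 48 h, 3 at each of 8, 12, 16, 24 and 40 h, and single ones at 32 and 36 h. During rewetting there were 2 at each of 0, 1 and 3 h, and single ones at 6, 12, 24 and 48 h. The labels put 22 libraries in batch 1 and 11 in batch 2, with no 0 h or 1 h dehydration library in batch 2 and no rehydration library later than 3 h. They give no age, no number of larvae per library and no separate cultures behind replicates, so p-values reflect only how these libraries vary, which may be technical.

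Drying larvae of this species are known for building up trehalose and for expressing late embryogenesis abundant proteins, antioxidants and heat shock proteins, which protect cells without water. In feeding insect larvae, abundant transcripts commonly encode digestive enzymes, cuticle proteins and storage proteins. Gene IDs carry no names in the files and had no match in the reference gene table, so the roles of the 107 genes are not given here. For the same reason the larval tissues could not be checked by marker genes. In whole-larva RNA, fewer cells of a type and less RNA per cell cannot be told apart.

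Library totals lay between 15015674 and 34179203 counts, with a median of 25150715. A single library stood apart, the batch 2 library at 1 h of rehydration. It detected 8035 genes, against at least 14232 in every other library, and its highest Pearson correlation with another library, across genes, was 0.697, against at least 0.914. It belongs to no group compared here and was left out of the tests, and the counts that move with it are given beside them. TMM scaling factors lay between 0.543 and 0.760 in the libraries of 48 h of dehydration and 0 h of rehydration, and between 1.11 and 1.15 at 1 h of dehydration. Without such scaling the median log2 fold change of all tested genes between these groups is -1.16, against -0.28 with it.

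The members spanned a wide range of abundance at 0 h, with mean levels between 2.58 and 1683 CPM and a median of 21.2 CPM, against a median of 5.42 CPM over the 17789 tested genes. At 0 h 22 of them reached 100 CPM, and 30 were under 10 CPM. The 5 most abundant held 48.0% of the members' summed CPM at 0 h. Together the 107 genes took 1.64% and 0.790% of the counts in the 0 h libraries and 0.959% and 0.536% at 1 h of dehydration. Their share lay between 0.132% and 0.380% in the 12 libraries of 8 to 24 h and between 0.0623% and 0.0909% in the 4 libraries of 48 h of dehydration and 0 h of rehydration. At 24 and 48 h of rehydration it was 0.145% and 0.312%.

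**Figure D1:**
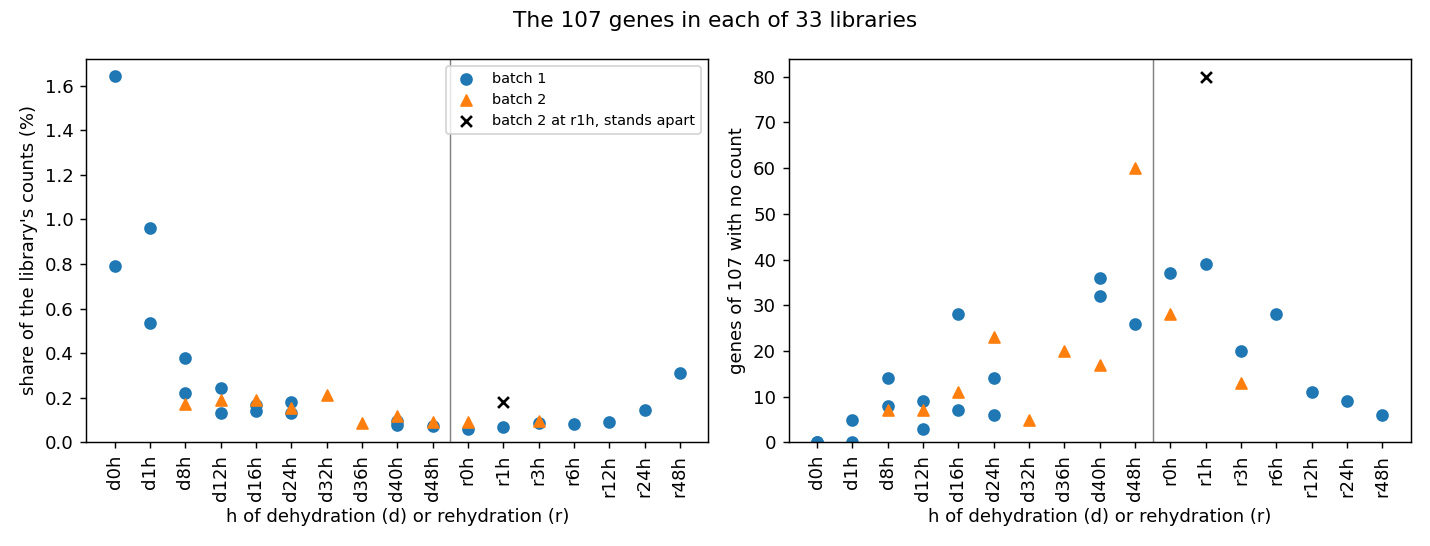
Each point is 1 of 33 libraries, placed by its h of dehydration (d) or rehydration (r), with circles for batch 1, triangles for batch 2 and a cross for the batch 2 library at 1 h of rehydration. The left panel gives the share of the library's counts, in percent, held by the 107 genes, which was 1.64% and 0.790% at 0 h and at most 0.380% from 8 h on, and the right panel gives how many of the 107 had no count, which was 0 in both 0 h libraries and between 26 and 60 in the 4 libraries of d48h and r0h. Those 4 libraries detected between 14232 and 18416 genes in all, against 16991 and 19959 at 0 h.

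The low levels at 8 to 24 h and at 24 and 48 h of rehydration are what chose the genes, so they are given as a description with no test. The median difference from 0 h, on the log2(mean CPM + 1) scale, was -2.39 at 8 to 24 h and -1.93 over 24 and 48 h of rehydration, and the lowest values were -6.83 and -5.05. Among all tested genes, 3.22% were at least 1.5 below 0 h at 8 to 24 h. The early difference was close in both batches, with a median of -2.41 over the 4 batch 2 libraries and -2.37 over the 8 batch 1 libraries. For 89 of the 107 genes both late rehydration libraries lay below both 0 h libraries, against 17.9% of tested genes, a share that follows from the rule.

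Genes at the limits show what the rule let in. The gene just inside the early limit (scaffold 57171, 269 to 808) averaged 1.097 CPM at 8 to 24 h, against 4.94 CPM at 0 h. The gene just outside it (scaffold 7784, 3602 to 4260) averaged 6.33 CPM, against 19.7 CPM at 0 h. At the late limit, the gene just inside (scaffold 629, 187606 to 189267) averaged 143 CPM over 24 and 48 h of rehydration, against 406 CPM at 0 h. The gene just outside (scaffold 145, 965109 to 969158) averaged 36.3 CPM, against 104 CPM at 0 h. At the 0 h check, the gene just inside (scaffold 4618, 10887 to 11777) had 16.6 and 1.09 CPM in the 0 h libraries. The 4 genes just outside had between 3.62 and 33.4 CPM in 0 h replicate 1 and between 0 and 0.948 CPM in replicate 2.

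The 0 h libraries differed for most members, and replicate 1 carried much of the choice. Replicate 1 was above replicate 2 for 91 of the 107 genes (85.0%), against 46.5% of tested genes, with a median log2 ratio of 1.16 on the CPM + 1 scale, against -0.01. It was more than 2-fold above replicate 2 for 62 members (57.9%), against 8.34% of tested genes, while replicate 2 was more than 2-fold above replicate 1 for 3 members. With replicate 1 alone as the 0 h level the rule keeps 245 genes, 99 of them among the 107. With replicate 2 alone it keeps 61 genes, 41 of them among the 107, and 33 of the 107 meet it with each library taken alone. Since the choice rests on high 0 h values, a wide gap between the 0 h libraries is partly built in. The 413 genes that met the early limit and the same checks, but not the late limit, leaned the same way. Their median difference from the 0 h level was 0.39 in replicate 1 and -0.53 in replicate 2, against 0.47 and -0.69 for the 107.

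The 1 h libraries, which the rule did not use, showed the same order. There, replicate 1 was above replicate 2 for 89 of the 107 genes (83.2%), against 54.6% of tested genes. The median difference from the 0 h level was -0.60 in 1 h replicate 1 and -1.49 in replicate 2. For the 413 genes not low later it was -0.32 and -1.36. Across tested genes, the difference between replicates 1 and 2 at 1 h had a Pearson correlation of 0.23 with that at 0 h, as a description over genes that share the same 4 libraries. Since replicate 1 was the higher for most members at 1 h too, results against 1 h are also given without replicate 1. Whether the replicate 1 libraries of 0 and 1 h share a deviation was not tested. The labels do not say what the replicate numbers share.

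**Figure D2:**
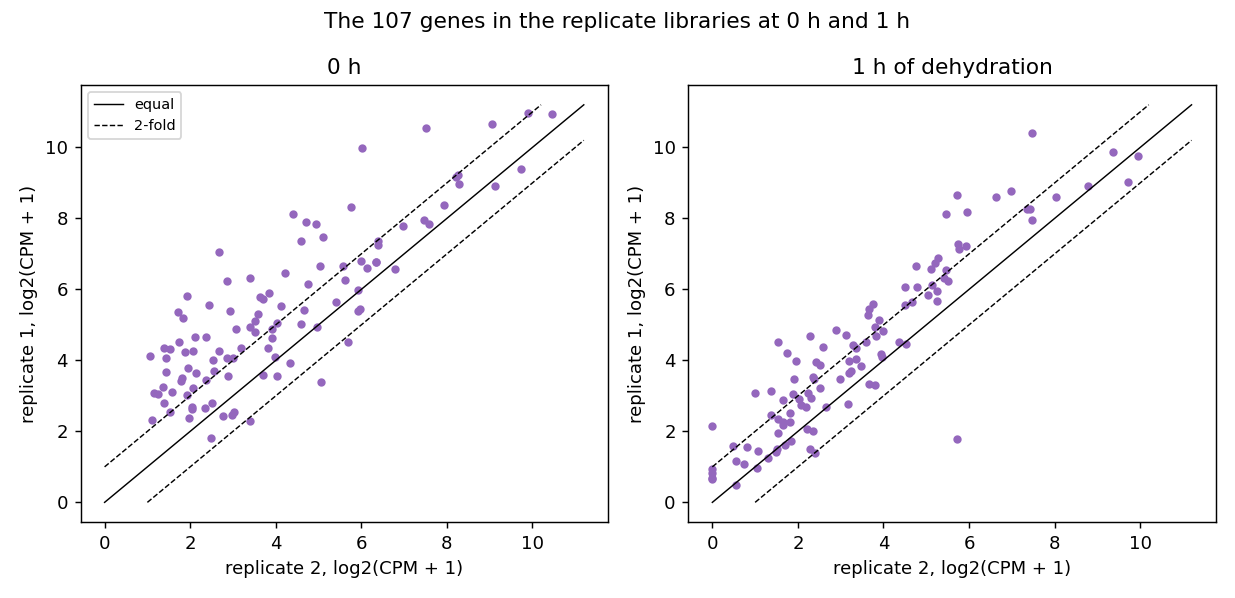
Each point is 1 of the 107 genes, with its level in replicate 1 on the vertical axis and in replicate 2 on the horizontal axis, both as log2(CPM + 1), at 0 h (left) and at 1 h of dehydration (right). The solid line marks equal levels and the dashed lines a 2-fold difference. At 0 h 91 genes lie above the solid line, and at 1 h 89 do.

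At 1 h of dehydration most members lay between their 0 h and 8 h levels. Their median level there was 51.0% of the 0 h mean, and on the log2(mean CPM + 1) scale the median lay at -0.90 from 0 h, against -0.06 over tested genes. By then 16 of the 107 were at least 1.5 below 0 h, against 0.59% of tested genes. Within replicate numbers the median difference of 1 h from 0 h was -0.99 for replicate 1 and -0.67 for replicate 2. These values share the 0 h libraries with the rule and carry no test.

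By 8 h the members had a median of 13.2% of their 0 h level, and they stayed near that to 32 h. On the log2 scale the median gap to 0 h was -2.29 at 8 h, -2.30 at 12 h, -2.56 at 16 h, -2.57 at 24 h and -2.26 at 32 h. A lower level at 24 h than at 8 h was seen for 76 of the 107 genes (59.3% of tested genes). A further step down lay between 32 and 36 h, each sampled with 1 library, both of batch 2, so that it has no replicate check. The 36 h library was below the 32 h library for 88 members (82.2%), against 51.3% of tested genes, with a median log2 difference of -0.95 on total counts and -0.90 after TMM scaling. A drop of at least 1 on this scale was seen for 50 members (46.7%), against 13.4% of tested genes.

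**Figure D3:**
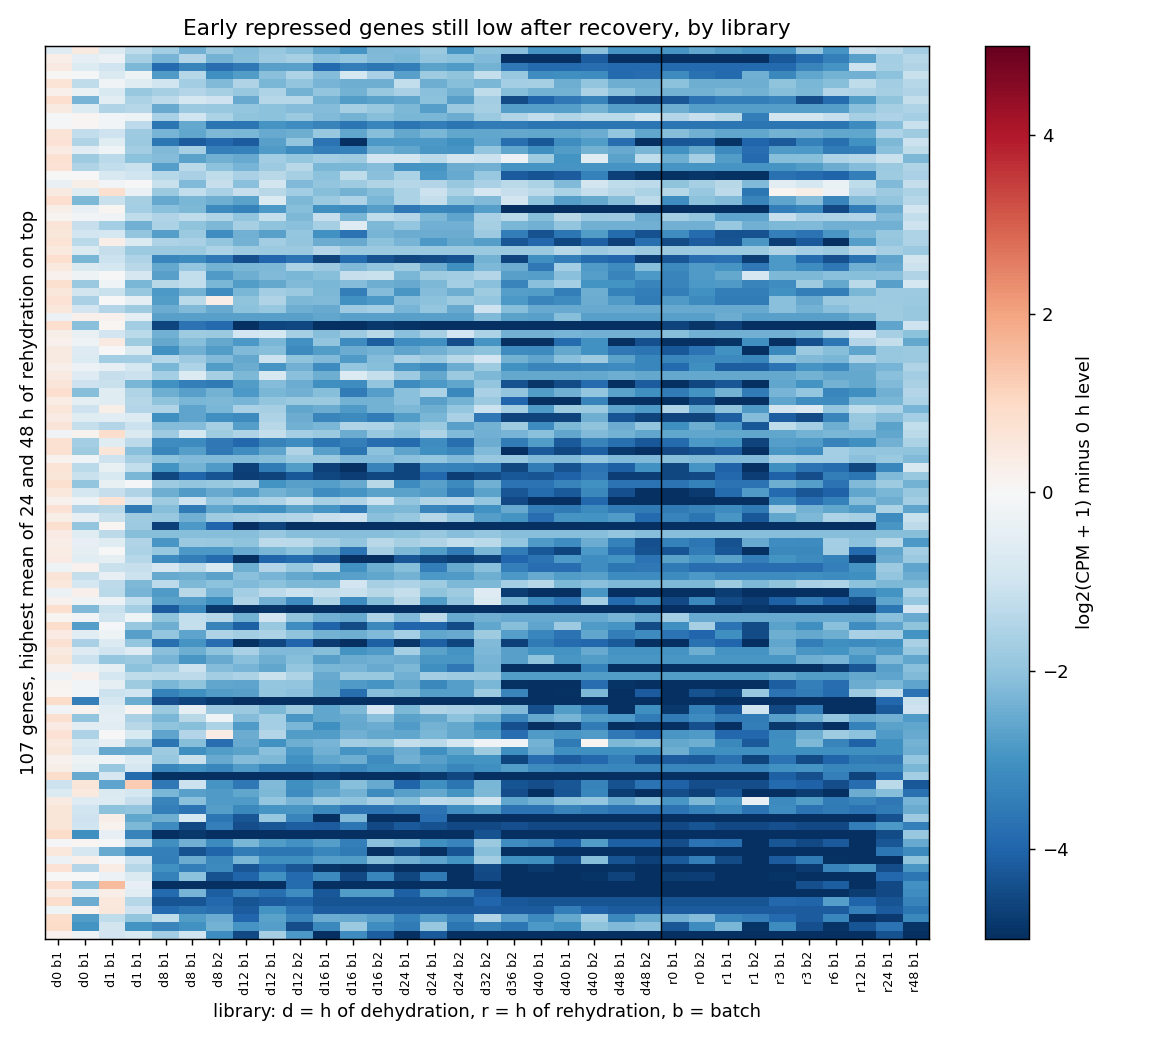
Rows are the 107 genes, ordered by their level at 24 and 48 h of rehydration relative to 0 h with the highest on top, and columns are the 33 libraries in order of time, with the batch of each (b1, b2) and a line between dehydration (d) and rehydration (r). Colour gives log2(CPM + 1) minus the 0 h level, with blue for lower and values under -5 drawn as -5. The first 2 columns are 0 h, the blue block starts at 8 h, and its dark part runs from 36 h of dehydration through early rehydration, where the median difference from 0 h was between -3.67 and -3.08.

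Outside the times that the rule used, the members stayed far below 0 h, which is still a description since the 0 h libraries chose them. At 32 h 94 of the 107 were at least 1.5 below 0 h on the log2(mean CPM + 1) scale, against 3.27% of tested genes. At 40 h 102 were (14.8% of tested genes) and at 48 h 104 (22.8%). In rehydration the count was 106 at 0 h (21.3% of tested genes), 104 at 1 h (19.4%), 101 at 3 h (7.05%), 103 at 6 h (7.38%) and 95 at 12 h (4.02%). Of the 413 genes not low later, 219 were that low at 32 h of dehydration, 379 at 40 h and 381 at 48 h. In rehydration 384 of the 413 were that low at 0 h, 375 at 1 h, 306 at 3 h, 316 at 6 h and 212 at 12 h. Tested genes as a whole moved too, with a median of -0.66 at 48 h of dehydration and 0.05 at 3 h of rehydration, where the members had -3.60 and -3.08.

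Libraries that did not choose the members were then compared with 1 h of dehydration, the earliest time outside the rule. The fit held 32 libraries, the rule's own among them, which share in its estimates of spread and batch. Each count is therefore also given from a fit of only the libraries that the rule did not use, which tested 99 members. The count filter of that fit used only its own libraries, so a member could pass it through its 1 h levels, the reference. Its 99 members are therefore not chosen independently of 1 h. The same holds for the later fits of only the compared groups with 1 h. At 40 h of dehydration 66 of the 107 genes (61.7%) fell and 0 rose against 1 h by the edgeR quasi-likelihood F-test at a Benjamini-Hochberg adjusted p under 0.05, with 3 libraries against 2. Of all tested genes, 12.0% were called down and 12.0% up. The members' median log2 fold change was -3.11, with quartiles of -5.04 and -1.79, against a median of -0.08 over tested genes, and 105 of the 107 estimates were below 0. By DESeq2, 74 were called down (15.9% of tested genes) and 0 up. With only the libraries outside the rule, 46 of 99 fell, against 7.93% of tested genes, and 0 rose. Without 1 h replicate 1, which was the higher of the 1 h libraries for most members, 36 fell, against 6.79% of tested genes, and the median was -2.40. With the batch 2 library at 1 h of rehydration in the fit, 37 fell, against 3.15% of tested genes.

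In dry larvae most members were lower than at 1 h of dehydration. The libraries of 48 h of dehydration and 0 h of rehydration, 2 of each, were joined as dry larvae. Against 1 h, 81 of the 107 genes (75.7%) fell and 0 rose (edgeR, adjusted p under 0.05), while 20.4% of tested genes fell and 14.5% rose. The median log2 fold change was -4.35, and -4.07 when the 13 members with no count in dry larvae were held at 3 counts over the 4 libraries. Over tested genes it was -0.28. By DESeq2, 84 were called down (22.9% of tested genes) and 0 up. With only the libraries outside the rule, 63 of 99 fell, against 13.9% of tested genes, and 0 rose. Without 1 h replicate 1, 61 fell, against 14.0% of tested genes. A fit of only the compared groups, which tested 95 members, called 50 down, against 8.4% of tested genes.

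Members with no count were common in this state. Between 26 and 60 of the 107 had none in a dry library, with the 60 in the batch 2 library of 48 h, which detected 14232 genes, against 0 and 5 in the 1 h libraries. The dry libraries detected between 14232 and 18416 genes, against 19212 and 17467 in the 1 h libraries, so other genes had no count there too. The share of tested genes without a count in each library is not given here. No count in any of the 4 dry libraries was seen for 13 members, against 3.30% of tested genes.

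At 3 h of rehydration the members were low as well. Against 1 h of dehydration, 55 of the 107 genes (51.4%) fell and 0 rose (edgeR, adjusted p under 0.05), with 2 libraries in each group, while 6.54% of tested genes fell and 7.63% rose. The median log2 fold change was -3.34, against 0.05 over tested genes, and 105 estimates were below 0. By DESeq2, 66 were called down (9.75% of tested genes) and 0 up. With only the libraries outside the rule, 30 of 99 fell, against 4.17% of tested genes, and 0 rose. This count moved most with the libraries used. It was 31 without 1 h replicate 1 (4.15% of tested genes), 21 without the batch 1 library of 3 h (3.15%) and 27 without the batch 2 library of 3 h (3.55%). It was 25 with the outlying library (1.57% of tested genes) and 30 in batch 1 alone (3.86%). A fit of the 4 compared libraries alone called 0 members and 0 of all tested genes. The median log2 fold change in that fit was -3.60 over its 97 tested members, against -0.05 over tested genes.

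Few members were called between dry larvae and 3 h of rehydration. Against dry larvae, 10 of the 107 genes rose and 5 fell at 3 h (edgeR, adjusted p under 0.05), that is 9.35% and 4.67%, while 16.7% of tested genes rose and 11.4% fell. The median log2 fold change was 0.56, against 0.19 over tested genes, and 43 members had an estimate below 0. In this fit the share of members called was below that of tested genes in both directions. The same held for the 413 genes not low later, of which 52 (12.6%) rose and 22 (5.33%) fell. The members' median in dry larvae was 0.393 CPM, and so few counts limit what can be called. The members' fitted fold changes spread more widely than those of tested genes, with quartiles of -0.90 and 2.43, against -0.69 and 1.30. For 18 members a compared group had no count, so the size of their fold change is not fixed by the counts. With such groups held at 3 counts the median was 0.57 over 102 members, against 0.19 over tested genes. Quartiles under that floor are not given here. DESeq2 called 11 up and 8 down, against 18.0% and 14.6% of tested genes. In the fit with the outlying library 6 members rose (5.61%) and 1 fell (0.935%), against 5.49% and 1.85% of tested genes. There the share that rose was not lower among members. With total counts as the only scaling, 30 rose and 0 fell, against 38.6% and 1.04% of tested genes, whose median was then 1.09. Leaving out single libraries moved the members' median log2 fold change. It was 0.22 without the batch 1 library of 3 h (0.19 over tested genes) and 0.23 without the batch 2 library of 3 h (0.08). Without the batch 1 library of 48 h it was 1.41 (0.44), and without the batch 2 library of 48 h 0.25 (0.16). Without the batch 1 library of 0 h of rehydration it was 0.43 (0.23), and without the batch 2 library of that time 0.84 (0.28).

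**Figure D4:**
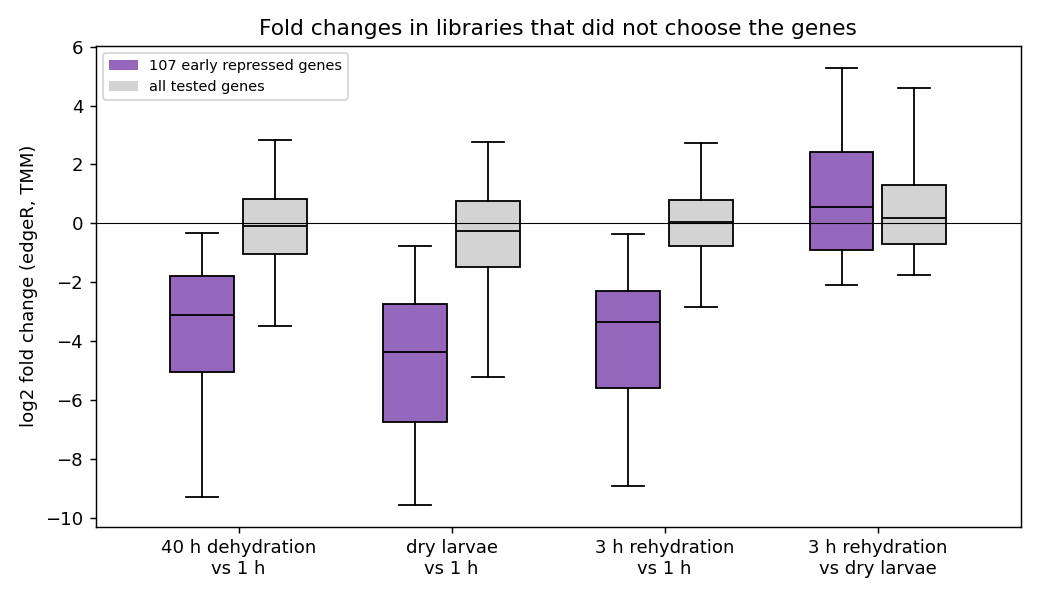
Boxes give the log2 fold change (edgeR with TMM scaling) of the 107 genes (purple) and of all 17789 tested genes (grey) in 4 comparisons of libraries outside the rule. The line is the median, the box spans the quartiles and the whiskers reach the 5th and 95th percentiles of genes, not of samples. The purple medians are -3.11, -4.35 and -3.34 in the comparisons with 1 h of dehydration and 0.56 for 3 h of rehydration against dry larvae.

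These 4 comparisons share libraries with each other, so their counts are not separate evidence. The rule is met with each 0 h library taken alone by 33 members. Of these, 26 fell at 40 h, 29 in dry larvae and 24 at 3 h of rehydration, each against 1 h. Of tested genes, 12.0%, 20.4% and 6.54% fell. The 413 genes that were as low at 8 to 24 h but not at 24 and 48 h of rehydration give a scale for the later levels. Against 1 h, 191 of them (46.2%) fell at 40 h, 254 (61.5%) in dry larvae and 132 (32.0%) at 3 h of rehydration, with median log2 fold changes of -1.97, -2.42 and -1.88. Whether the 107 differ from the 413 in these comparisons was not tested.

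PvG002625 lies on scaffold 1206 at 40 to 541 (plus strand, 3 exons) and had the largest fitted fall from 1 to 40 h of dehydration. It had 0 counts in all 3 libraries at 40 h, against 27.9 and 6.45 CPM at 1 h. At 0 h it stood at 35.3 and 2.56 CPM. In the 12 libraries of 8 to 24 h its lowest and median values were 0 and its highest 0.318 CPM. The groups at 40 h and 1 h did not overlap, and the fall was called (edgeR quasi-likelihood F-test, Benjamini-Hochberg adjusted p = 0.000816). The pooled 1 h libraries stood 427-fold above a floor of 3 counts over the 40 h libraries. The lower 1 h library alone would give a smaller ratio. No count was found in the 4 dry libraries, and the gene's highest level in rehydration was 1.94 CPM, at 6 h.

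PvG029668 lies on scaffold 751 at 1614 to 2424 (minus strand, 4 exons) and likewise had 0 counts at 40 h, against 24.8 and 3.88 CPM at 1 h. At 0 h it had 33.3 and 10.4 CPM, and its 8 to 24 h values ran from 0 through a median of 0.197 to 1.59 CPM. The fall from 1 h was called (edgeR quasi-likelihood F-test, Benjamini-Hochberg adjusted p = 0.00220). The pooled 1 h libraries stood 354-fold above a floor of 3 counts over the 40 h libraries, and the lower 1 h library alone would give a smaller ratio. In dry larvae PvG029668 had 3 counts over 4 libraries. The pooled 1 h libraries were 451 times higher, with a 95% exact counting interval of 154 to 2190. At 24 and 48 h of rehydration it had 2.10 and 1.12 CPM. From 8 h of dehydration on, both genes stood at 2.10 CPM or less in every library, and at 24 and 48 h of rehydration at 9.62% of their 0 h mean or less.

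Of the members that rose at 3 h of rehydration, 6 also had a mean of at least 5 CPM at 3 h and no overlap with dry larvae. PvG000970, a plus-strand model on scaffold 1079 at 107708 to 108655 with 2 exons, showed the largest rise of these. It had 8.13 and 11.0 CPM at 3 h of rehydration, against 0.0878, 0.446, 0.178 and 0.719 CPM in the 4 dry libraries, a log2 fold change of 4.07 ± 0.98 (SE; edgeR quasi-likelihood F-test, Benjamini-Hochberg adjusted p = 0.00603). Before that it had held a plateau, with a lowest, median and highest value of 32.4, 40.13 and 60.9 CPM at 8 to 24 h. It stood at 1.16 CPM at 36 h, against 36.8 CPM at 32 h, in 1 library each. At 40 h it had 0.0613 and 0.276 CPM in batch 1 and 8.73 CPM in batch 2, the library with conflicting durations. At 0 h it had 219 and 125 CPM. In later rehydration it stood at 15.3, 25.4, 52.4 and 63.3 CPM at 6, 12, 24 and 48 h, the last being 36.8% of the 0 h mean. The model overlaps a neighbour, so its reads may be shared. The rise did not pass when that 40 h library was counted at 48 h, at an adjusted p of 0.0536 (edgeR).

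PvG000247, a plus-strand model with 6 exons on scaffold 1009 at 42156 to 45495, had 9.52 and 5.77 CPM at 3 h of rehydration, against 0.380, 0.624, 0.401 and 1.25 CPM in the dry libraries. The log2 fold change was 2.83 ± 0.52 (SE; edgeR quasi-likelihood F-test, Benjamini-Hochberg adjusted p = 0.000525), with no overlap between the groups. It too had a plateau, with 23.0, 31.9 and 44.9 CPM as the lowest, median and highest values at 8 to 24 h, and stood at 3.16 CPM at 36 h, against 23.7 CPM at 32 h, each in 1 library. At 0 h it had 109 and 79.7 CPM, and at 48 h of rehydration 27.5 CPM.

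The most abundant member at 0 h, a 2-exon model on the minus strand of scaffold 819 (349490 to 349930), had lower levels at each later time of early drying. It stood at 1961 and 1405 CPM at 0 h and at 871 and 982 CPM at 1 h. At 8 h the libraries had 523, 852 and 197 CPM, and at 24 h 22.3, 91.1 and 34.4 CPM. In the dry libraries it had between 0 and 3.55 CPM, a fall of 9.24 ± 1.59 on the log2 scale against 1 h (SE; edgeR quasi-likelihood F-test, Benjamini-Hochberg adjusted p = 0.000371). At 24 and 48 h of rehydration it had 81.2 and 18.8 CPM, or 4.82% and 1.12% of the 0 h mean.

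The next most abundant, a 4-exon model on the minus strand of scaffold 78039 (1122 to 1959), kept an intermediate level throughout. It had 2016 and 958 CPM at 0 h, and between 149 and 599 CPM at 8 to 24 h with a median of 359 CPM. In the dry libraries it had 256, 339, 196 and 311 CPM, against 932 and 661 CPM at 1 h, and the difference did not pass after TMM scaling (log2 fold change -0.77 ± 0.32, SE; edgeR quasi-likelihood F-test, Benjamini-Hochberg adjusted p = 0.0639). At 3 h of rehydration it had 162 and 213 CPM and was below dry larvae by the same test (log2 fold change -1.45 ± 0.33, SE; edgeR adjusted p = 0.00246). Per kb of exon, these models had means of 4360 CPM for the scaffold 819 model and 2305 CPM for the scaffold 78039 model at 0 h.

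**Figure D5:**
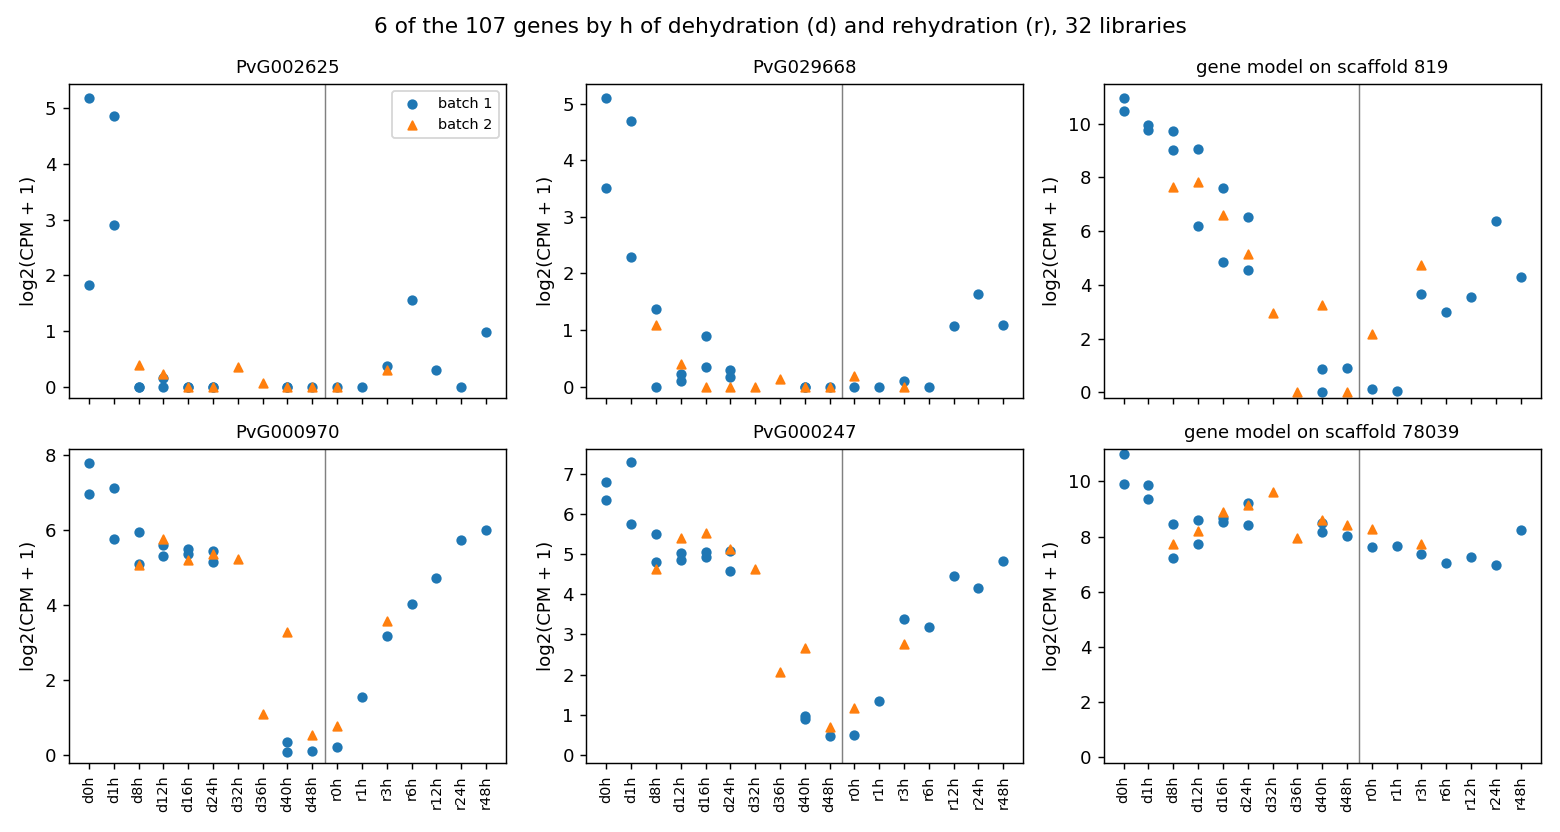
Each panel shows 1 of the 107 genes as log2(CPM + 1) in 32 libraries, by h of dehydration (d) and rehydration (r), with circles for batch 1 and triangles for batch 2 and a line between drying and rewetting. PvG002625 and PvG029668 stood at 2.10 CPM or less from 8 h on, PvG000970 and PvG000247 held a plateau to 32 h and had 1.25 CPM or less in dry larvae, and the scaffold 819 model went lower through drying while the scaffold 78039 model stayed between 123 and 783 CPM after 1 h.

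The 22 members of at least 100 CPM at 0 h differed widely in how much was left in dry larvae. A model on scaffold 2859 (167812 to 169611) had no count in any dry library, while a model on scaffold 199 (793124 to 795195) kept 42.5% of its 0 h mean. The scaffold 819 model kept 0.0670% and the scaffold 78039 model 18.5%. At 48 h of rehydration the same 22 stood between 1.12% and 52.8% of the 0 h mean, with the scaffold 819 model lowest and a model on scaffold 629 (187606 to 189267) highest.

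In later rehydration the members stood nearer to their 0 h level with time, as seen in 1 library per time. Their median level relative to the 0 h mean was 5.21% at 6 h, 8.28% at 12 h, 14.3% at 24 h and 22.5% at 48 h, of which the rule used the last pair. At 6 h 79 of the 107 stood below 10% of the 0 h mean, at 12 h 58, at 24 h 42 and at 48 h 25. Of the 12510 tested genes that reached 1 CPM in both 0 h libraries, 4.37% stood that low at 6 h, 2.08% at 12 h, 3.36% at 24 h and 1.97% at 48 h. The 48 h library was above the 24 h library for 75 members (70.1%), against 46.6% of tested genes. The highest level at 48 h was 56.3% of the 0 h mean, for a model on scaffold 20523 (44 to 881), with 18.0 CPM at 48 h of rehydration against 51.7 and 12.07 CPM at 0 h.

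The gene models of the members were shorter than those of tested genes by the median. Their median exonic length was 971 bases, against 1399 bases over tested genes and 1098 bases over the 413 genes not low later. The median exon number was 3 over members and over tested genes, and 4 over the 413. Models of 10 or more exons made up 1 of the 107, or 0.935%, against 6.46% of tested genes, and single-exon models made up 15.9%, against 15.2%. A model overlapping another was seen for 28 members (26.2%), against 41.8% of tested genes and 32.2% of the 413, and 3 members had no strand. Of the 413, 7.51% had 10 or more exons and 14.0% a single exon. Since the use of strand in counting is not given in the sources used here, reads of overlapping models cannot be told apart. The 107 genes lay on 93 scaffolds, and 12 scaffolds held more than 1 of them.

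Only 3 runs of consecutive members were found, with 7 genes in all, and every model in them overlapped another. The longest was 3 genes in 5.41 kb of scaffold 593 (139632 to 145041), with strands plus, minus and plus. Its summed level was 61.2 and 8.81 CPM at 0 h and 32.2 and 17.8 CPM at 1 h. At 8 h it was 3.44 and 11.3 CPM in the batch 1 libraries and 40.7 CPM in the batch 2 library, which lay between the 0 h libraries. In the 4 dry libraries it was between 0 and 1.68 CPM, and all 3 genes fell against 1 h (edgeR, adjusted p under 0.05).

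The other runs held 2 genes each. On scaffold 3685 (46 to 2168) 2 minus-strand models summed to 87.5 and 11.1 CPM at 0 h, between 0.312 and 3.31 CPM in dry larvae, and 6.93 and 20.5 CPM at 24 and 48 h of rehydration. On scaffold 820 (461729 to 465913) a minus- and a plus-strand model summed to 27.1 and 9.69 CPM at 0 h, between 0 and 0.556 CPM in dry larvae, and 3.63 and 3.70 CPM at 24 and 48 h of rehydration. Both genes of each run fell in dry larvae against 1 h (edgeR, adjusted p under 0.05), and at 40 h 1 gene of the scaffold 3685 run and 0 of the scaffold 820 run did.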

How the data were processed

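The deposited values are whole-number counts per gene, not normalized, and gene models on scaffolds whose source column names SAJR. TopHat2 is the aligner named in the submitters' processing notes. Build, counter and strand setting are not given in the sources used here. Replicates were not pooled in the deposited counts. Groups follow the titles. A library of batch 2 with a 40 h title carries a duration of 48 h and was counted at 40 h.

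Members and tests were chosen with earlier results of these data known. Genes reaching 1 CPM in 2 or more of 32 libraries were tested in 1 model of time plus batch, by the edgeR 4.0.16 quasi-likelihood F-test (R 4.3.3, TMM, robust, Benjamini-Hochberg over 17789 genes). Dry larvae were the mean of the coefficients of 48 h of dehydration and 0 h of rehydration. The fit recovered planted changes in simulated counts, planted only in genes averaging above 5 CPM and with no batch difference. The simulation did not cover genes of lower mean or libraries that deviate together. CPM values use total counts, and floors are 3 counts over a group. Intervals and floors cover counting error only. Named members were the 2 with the largest fall at 40 h against 1 h and the 2 with the largest rise at 3 h of rehydration against dry larvae, each called, with a mean of at least 5 CPM in the higher group and no overlap, then the 2 most abundant at 0 h and the 3 longest runs by position. Alternatives included DESeq2 1.42.0. Replicate counts differed by far more than sampling noise (chi-square per degree of freedom at least 37.7 over genes with at least 20 counts). Gene lists by function need names and were not used here.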

Additional observations from a re-analysis of the deposited data

How the results depend on the processing

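The number of members was 245 and 61 with 0 h replicate 1 or replicate 2 alone, 171 with 24 h of rehydration alone, 321 with a limit of -1 and 42 with a limit of -2. Leaving out an early library gave 106 to 111, and the other settings gave 72 to 132. No alternative fit called a member up against 1 h. Members that fell at 40 h numbered 37 with all 33 libraries and 36 to 63 without a replicate. In dry larvae 50 fell in a fit of only the compared groups (8.4% of tested genes). At 3 h of rehydration against 1 h the count was 25 with all 33 libraries, 30 with only libraries the rule did not use, 0 with only the compared groups, 30 in batch 1 alone, and 21 to 49 without a replicate. At 3 h against dry larvae, 1 fell with all 33 libraries, 1 in batch 1 alone, 9 with upper quartile scaling, 0 with total counts only, 8 with DESeq2, 2 with no count filter and 1 to 5 without a replicate, and 6 rose with all 33 libraries, 30 with total counts only, 6 with the 40 h library moved to 48 h and 4 to 16 without a replicate. The cause of these changes was not tested. Some of the settings leave out libraries or genes.

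With the replicate block (title numbers 1, 2 and 3 and batch 2 as block levels) 62 members fell at 40 h, 86 in dry larvae and 60 at 3 h of rehydration against 1 h, and 13 rose and 7 fell at 3 h against dry larvae. The compared groups share at most 1 title number besides batch 2, and no label says that a number marks a shared culture. Differences between same-numbered libraries correlated at 0.13 to 0.24 over the 10 pairs of times with numbers 1 and 3, and at -0.04 to 0.27 over the 28 pairs with number 1 and batch 2. Depth limits the low genes most: in dry larvae 3 counts over 4 libraries is 0.0300 CPM.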

Other observations

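Several abundant members followed courses of their own, and these were singled out after their values were seen. A 3-exon model on scaffold 1783 (135837 to 136749) had 425 CPM at 48 h of rehydration, 50.8% of its 0 h mean, against 1494 and 180 CPM at 0 h, and 67.5 CPM at 24 h. A 4-exon model on scaffold 498 (18727 to 19577) showed the largest early difference from 0 h on the log2(mean CPM + 1) scale, at -6.83, with a median of 2.47 CPM at 8 to 24 h, against 1010 and 64.1 CPM at 0 h. It had 0.339 and 0.0764 CPM at 3 h of rehydration and 23.1 and 142 CPM at 24 and 48 h.

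A model of 8 exons on scaffold 141 (174564 to 177011) was the only member whose dry level lay at least 1 above its 8 to 24 h level on the log2(mean CPM + 1) scale, with a mean of 52.6 CPM in dry larvae and 23.9 CPM at 8 to 24 h, where 3.36% of tested genes lay that far above. A 4-exon model on scaffold 199 (793124 to 795195) had the highest dry level relative to 0 h of the 22 members of at least 100 CPM at 0 h, at 188 to 257 CPM in dry larvae, against 481 and 558 CPM at 0 h. In the opposite direction, 51 members lay at least 1 below their early level in dry larvae, against 29.1% of tested genes.

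A 2-exon model on scaffold 327 (155814 to 156422) was the member with the largest excess of replicate 2 over replicate 1 at 0 h, at 9.43 and 32.1 CPM in replicates 1 and 2, and it kept that order at 1 h, with 2.48 and 51.8 CPM.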
